A study of Mus musculus with 6 samples.

Results

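The genes described here are 10 markers and regulators of the endothelium, the cell layer that lines blood vessels, and of the endocardium, its counterpart inside the heart. They are the transcription factors Erg, Fli1 and Nfatc1, the VEGF receptors Kdr, Flt1 and Flt4, the TIE receptors Tek and Tie1, and the surface proteins Cdh5 and Pecam1. They were taken by gene symbol from the deposited table of 16832 genes, all 10 had a row, and all 10 passed the minimum mean of 10 normalized counts. RNA had been sequenced from the second heart field region, the progenitor tissue behind the heart tube, dissected out of E9.5 mouse embryos (embryonic day 9.5). The gain-of-function (GoF) group had the genotype Hoxb1GOF;Mef2c-Cre and is covered by 3 libraries, replicates 1 to 3. The control (CTRL) group had the genotype Mef2c-Cre and is covered by 2 libraries, replicates 2 and 3, while CTRL replicate 1 was not analysed here. Both groups carried Mef2c-Cre, a transgene that drives Cre recombinase in cells of the second heart field and their descendants, among them endothelial and endocardial cells, so its presence does not separate the groups. The labels do not say whether the libraries came from separate embryos or pools, and the p-values below therefore measure only the spread between these libraries.

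Endothelial cells receive VEGF through the receptor tyrosine kinase KDR (VEGFR2), while FLT1 (VEGFR1) binds VEGF tightly and limits how much reaches KDR, and FLT4 (VEGFR3) is the receptor for VEGF-C and VEGF-D. ERG and FLI1 are closely related factors of the ETS family, which bind DNA around a GGAA core and keep many endothelial genes active. TEK (TIE2) is the receptor for angiopoietins and TIE1 its partner, CDH5 (VE-cadherin) forms the junctions between endothelial cells, PECAM1 sits at the same contacts, and NFATc1 is a calcineurin-regulated factor that marks the endocardium and is needed for heart valve formation.

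The libraries held 34260116 to 44384354 reads, and mitochondrial genes took 35.7% to 37.4% of the reads in the GoF libraries, against 44.4% and 50.7% in the CTRL libraries. Hoxb1 itself was measured at 1021, 1003 and 1041 normalized counts in GoF replicates 1, 2 and 3, against 752 and 610.2 in CTRL replicates 2 and 3. Isl1, a marker of second heart field progenitors, stood at 728, 731 and 718 normalized counts in the GoF libraries, against 728 and 708 in the CTRL libraries. Fold changes between the groups followed the GC content of the genes across the whole table. From the lowest to the highest of 10 equal bins of GC content, the median log2 difference (GoF minus CTRL) went up from -0.43 to 0.65. Results for the 10 genes are therefore also given with this trend removed (the GC correction).

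Among the 10 genes, Cdh5 rose and Erg fell in the GoF libraries, and the other 8 did not pass the test (limma, Benjamini-Hochberg adjusted p under 0.05). The share of all 16794 genes tested that were called was 12.2% higher and 10.9% lower, or 23.2% in either direction, so 2 calls among 10 genes lie near the background of the table. The median log2 difference of the 10 genes was 0.06, and that of all genes was -0.01. All GoF libraries lay above both CTRL libraries for 5 of the 10 genes, all lay below for 1, and the groups overlapped for 4. Over all genes tested these shares were 27.3% above and 27.6% below. Since the tissue was sequenced in bulk, fewer endothelial cells and less RNA per endothelial cell cannot be told apart in any of these values.

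**Figure D1:**
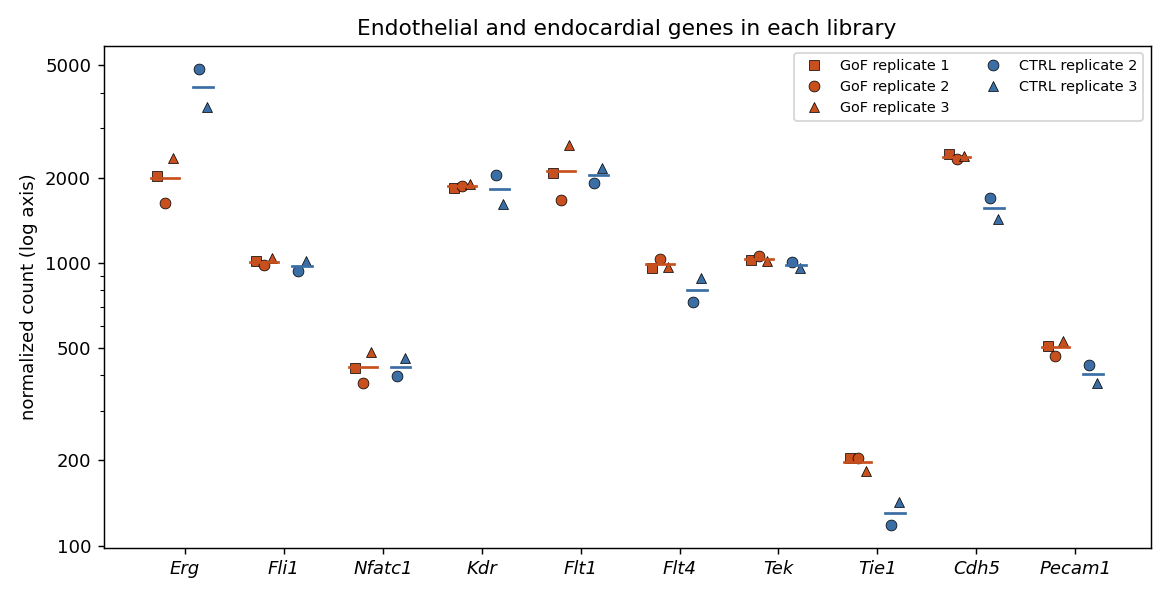
Normalized counts of the 10 genes (log axis) in each library, with GoF libraries (orange) left of CTRL libraries (blue) for each gene, symbols for replicates and lines for group means. Erg had all 3 GoF libraries below both CTRL libraries, Cdh5 had all 3 above, and Fli1, Nfatc1, Kdr and Flt1 had groups that overlapped.

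Levels were set beside each other after division by transcript length, which corrects neither for the amplification nor for which transcript is expressed. The order of the group means was then the same in both groups, though not in every library. In GoF replicate 2, Cdh5 (581 per kilobase) stood above Erg (502), and in CTRL replicate 3, Flt1 (314) stood above Kdr (272). Per kilobase of the longest transcript, Erg had 616 ± 110 normalized counts in the GoF libraries (SD, n = 3), against a mean of 1293 in the CTRL libraries (n = 2). Cdh5 came next with 594 ± 12 in GoF, against 389.8 in CTRL. Erg thus stood well above Cdh5 in the CTRL libraries, while in the GoF libraries the levels of these genes lay within the spread of Erg. Kdr (315 ± 5.2), Flt1 (307 ± 68) and Fli1 (304 ± 8.8) formed a middle group in the GoF libraries whose members lay within the spread of Flt1. Below them came Tek (221 ± 4.4), Flt4 (158 ± 6.7), Pecam1 (146 ± 9.1), Nfatc1 (89.3 ± 11) and Tie1 (46.6 ± 2.8), all per kilobase in the GoF libraries.

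Erg, an ETS factor that maintains endothelial identity and junctions, is encoded on the reverse strand of chr16:95359169-95586593 (build GRCm38, annotation GENCODE M21). It was measured at 2029, 1629.8 and 2345 normalized counts in GoF replicates 1, 2 and 3, against 4855 and 3545 in CTRL replicates 2 and 3. All GoF libraries lay below both CTRL libraries, with GoF replicate 2 lowest and CTRL replicate 2 highest. Erg fell to 0.477 times the CTRL level (log2 difference -1.07, SE 0.18, limma Benjamini-Hochberg adjusted p = 0.00807). The drop went against the GC trend, since genes in the same GC bin had a median log2 difference of 0.15, and with the trend removed it was -1.20 (SE 0.19, limma adjusted p = 0.0178). The authors' deposited table gives Erg a log2 fold change of -1.07 with an adjusted p of 9.0e-08. Leaving out each library in turn gave Erg log2 differences of -1.29 to -0.84, all of which passed (limma adjusted p of 0.0094 to 0.0333).

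The genes beside Erg on chromosome 16 were looked up by position. On the side of lower coordinates, Kcnj15 lay 58.9 kb away with a log2 difference of -0.32 (SE 0.26, limma adjusted p = 0.392), and Kcnj6 and Dyrk1a beyond it did not pass either. Ets2, another ETS factor 115.5 kb away on the other side, rose by 0.39 on the log2 scale (SE 0.12, limma adjusted p = 0.0485), a call that was lost with the GC trend removed (limma adjusted p = 0.489) and when any of the 5 libraries was left out (limma adjusted p of 0.0556 to 0.239). Psmg1 and Brwd1 beyond Ets2 did not pass. Kcnj6, Dyrk1a, Psmg1 and Brwd1 had log2 differences of -0.55, -0.20, -0.46 and -0.21. Of the 6 neighbours, none was called lower, against 10.9% of all genes tested.

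The sequence before the annotated starts of Erg is shown because Erg has several alternative starts, while the deposited values are per gene and give no count for each start. RefSeq lists 3 of them, and the 250 bases before the outermost start (chr16:95586594-95586843, reverse strand, build GRCm38.p6) and before the innermost start (chr16:95459349-95459598, reverse strand) are printed 5′ to 3′. Capitals mark the ETS core GGAA or its reverse complement TTCC.
Erg, outermost start: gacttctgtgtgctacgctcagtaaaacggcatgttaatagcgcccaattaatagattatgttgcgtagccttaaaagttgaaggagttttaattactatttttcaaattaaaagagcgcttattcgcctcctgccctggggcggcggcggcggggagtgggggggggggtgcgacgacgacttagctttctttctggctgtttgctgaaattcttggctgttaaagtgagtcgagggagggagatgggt
Erg, innermost start: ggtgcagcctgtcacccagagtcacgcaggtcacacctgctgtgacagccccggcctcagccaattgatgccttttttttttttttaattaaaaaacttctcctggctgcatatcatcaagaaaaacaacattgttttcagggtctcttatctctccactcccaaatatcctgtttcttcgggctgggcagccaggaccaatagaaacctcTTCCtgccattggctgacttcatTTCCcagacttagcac
The outermost window held 0 ETS cores and the innermost 2, and a window before the start between them (chr16:95530366-95530615) held 4. The core is short, and 93.4% of 32851 promoter windows of this length held at least 1, with a median of 3, so these matches are a description of the letters and not of binding.

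Fli1, a close ETS relative of Erg, is encoded on the reverse strand of chr9:32422204-32542861. Its level was 1011, 979 and 1037 normalized counts in GoF replicates 1, 2 and 3, against 932 and 1018 in CTRL replicates 2 and 3. The groups overlapped, and the libraries of each group lay close together. The log2 difference was 0.05 (SE 0.10, limma adjusted p = 0.743), and 0.23 after the GC correction (limma adjusted p = 0.191). Within each library the ratio of Erg to Fli1 was 2.01, 1.67 and 2.26 in GoF replicates 1, 2 and 3, against 5.21 and 3.48 in CTRL replicates 2 and 3. The GoF ratio was 0.461 times the CTRL ratio, with an exact two-sided permutation p of 0.1, the smallest that 3 libraries against 2 allow. Since Erg already separated the groups and Fli1 hardly differed, this p follows from the values of Erg and is no separate support.

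The introns of Fli1 hold 5 other annotated features with a row in the table, and none of them shares an exonic base with Fli1. Gm37082, a feature of 1927 bases on the same strand as Fli1 (chr9:32535251-32537177), was measured at 477, 451 and 527 normalized counts in GoF replicates 1, 2 and 3, against 721 and 1042 in CTRL replicates 2 and 3. All GoF libraries lay below both CTRL libraries. Gm37082 fell by 0.84 on the log2 scale (SE 0.17, limma adjusted p = 0.0145), and the difference after removal of the GC trend was -0.53 (limma adjusted p = 0.118). The other 4 features, Gm37474, Gm38292, Gm38346 and Gm27201, had log2 differences of -0.54, -0.57, -0.13 and -0.65 and did not pass. The difference between Fli1 and its intronic features was not tested.

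Nfatc1, the endocardial factor, lies on the reverse strand of chr18:80606205-80713071. Nfatc1 had 425, 376 and 484 normalized counts in GoF replicates 1, 2 and 3, against 396 and 462 in CTRL replicates 2 and 3. The groups overlapped, with GoF replicate 2 lowest and GoF replicate 3 highest of all 5 libraries. The log2 difference was -0.01 (SE 0.16, limma adjusted p = 0.980), and -0.34 after the GC correction (limma adjusted p = 0.211).

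Kdr, the main signalling receptor for VEGF, lies on the reverse strand of chr5:75932827-75978458. Kdr had 1834, 1865 and 1896 normalized counts in GoF replicates 1, 2 and 3, against 2039 and 1609 in CTRL replicates 2 and 3. The GoF libraries lay within the range of the CTRL libraries. The log2 difference was 0.04 (SE 0.11, limma adjusted p = 0.808), and -0.012 after the GC correction (limma adjusted p = 0.957). Flt1, the receptor that limits VEGF availability, lies on the reverse strand of chr5:147561604-147726011. Its values were 2082, 1664 and 2601 normalized counts in GoF replicates 1, 2 and 3, against 1918 and 2164 in CTRL replicates 2 and 3. Here the GoF libraries held both the lowest and the highest value, 1.56-fold apart, and the CTRL libraries lay between them. The log2 difference of Flt1 was 0.03 (SE 0.17, limma adjusted p = 0.911), and -0.09 after the GC correction (limma adjusted p = 0.785).

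The promoters of both receptors are shown because FLT1 is known as a gene induced by low oxygen, and low oxygen genes differed between the GoF libraries. The 250 bases before each start are chr5:75978456-75978705 for Kdr and chr5:147726012-147726261 for Flt1, both on the reverse strand (RefSeq, build GRCm38.p6). Capitals mark GGAA or TTCC.
Kdr: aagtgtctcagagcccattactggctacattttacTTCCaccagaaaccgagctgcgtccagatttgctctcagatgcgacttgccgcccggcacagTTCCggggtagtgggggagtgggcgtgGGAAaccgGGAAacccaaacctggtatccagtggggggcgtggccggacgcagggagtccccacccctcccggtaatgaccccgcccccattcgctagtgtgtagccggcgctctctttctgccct
Flt1: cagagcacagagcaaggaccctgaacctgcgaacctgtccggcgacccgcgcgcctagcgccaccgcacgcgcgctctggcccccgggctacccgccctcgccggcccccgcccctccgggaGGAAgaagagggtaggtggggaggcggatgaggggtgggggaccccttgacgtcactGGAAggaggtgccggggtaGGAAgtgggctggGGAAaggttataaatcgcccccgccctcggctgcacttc
Each window held 4 ETS cores, and Kdr held 1 match to the extended core CCGGAA or TTCCGG, which overlaps 1 of the 4 and is found in 12.03% of all promoter windows. ACGTG or CACGT, a form of the core of the low oxygen response element, had 0 matches in either window. It is found in 16.6% of all promoter windows, and other forms of that core were not searched. The absence of these letters from 250 bases says nothing about sites elsewhere.

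Flt4, the receptor for VEGF-C and VEGF-D, lies on the forward strand of chr11:49609263-49652739. It was measured at 958, 1035 and 969 normalized counts in GoF replicates 1, 2 and 3, against 725 and 881 in CTRL replicates 2 and 3. All GoF libraries lay above both CTRL libraries. The log2 difference was 0.30 (SE 0.12, limma adjusted p = 0.102). Removal of the GC trend turned the value to -0.21 (limma adjusted p = 0.234), and genes of the same GC bin had a median log2 difference of 0.45. Without CTRL replicate 3, the higher of the CTRL libraries, the difference of Flt4 was 0.45 and passed the test (limma adjusted p = 0.0238).

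Tek, the angiopoietin receptor, lies on the forward strand of chr4:94739289-94874976. The Tek level was 1022, 1053 and 1014 normalized counts in GoF replicates 1, 2 and 3, against 1004 and 957 in CTRL replicates 2 and 3. The GoF libraries lay just above the CTRL libraries, and the log2 difference of 0.07 was smaller than its error (SE 0.10, limma adjusted p = 0.619), and the difference of Tek was 0.15 after the GC correction (limma adjusted p = 0.345). Tie1, the partner receptor of Tek, lies on the reverse strand of chr4:118471191-118490061 and had the lowest level of the 10 genes. Its values were 204, 205 and 184 normalized counts in GoF replicates 1, 2 and 3, against 118 and 142 in CTRL replicates 2 and 3. All GoF libraries lay above both CTRL libraries with no overlap. Tie1 had a 1.52-fold difference that missed the threshold (log2 difference 0.60, SE 0.19, limma adjusted p = 0.0534), and without CTRL replicate 3 it was 0.73 and passed (limma adjusted p = 0.0281). Of all 10 genes it had the highest GC content (57.6%), its GC bin had a median log2 difference of 0.65, and with the trend removed the difference of Tie1 was 0.03 (limma adjusted p = 0.919).

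The promoter of Tie1 is shown because it held the most ETS cores of the 8 windows examined. The 250 bases before its RefSeq start (chr4:118489850-118490099, reverse strand, build GRCm38.p6) are printed with GGAA or TTCC in capitals.
Tie1: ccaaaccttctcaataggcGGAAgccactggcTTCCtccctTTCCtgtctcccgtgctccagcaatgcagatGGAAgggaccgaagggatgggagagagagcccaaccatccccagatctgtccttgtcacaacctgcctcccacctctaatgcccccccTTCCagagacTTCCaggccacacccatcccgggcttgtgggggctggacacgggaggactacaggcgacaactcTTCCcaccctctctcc
This window held 7 ETS cores, against 2 each in those of Tek (chr4:94739039-94739288) and Flt4 (chr11:49609429-49609678). By the GENCODE positions given above, most of the Tie1 window and all of the Flt4 window lie inside the annotated gene. The RefSeq starts used for these windows are thus not the outermost annotated starts. ACGTG or CACGT, the searched form of the low oxygen core, had 0 matches in all 8 windows, which belong to 6 of the 10 genes.

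Cdh5, the cadherin of endothelial junctions, lies on the forward strand of chr8:104101625-104144511. It was measured at 2416, 2321 and 2387 normalized counts in GoF replicates 1, 2 and 3, against 1689.6 and 1425 in CTRL replicates 2 and 3. The GoF libraries lay close together and all above both CTRL libraries. Cdh5 rose 1.53-fold (log2 difference 0.61, SE 0.10, limma adjusted p = 0.00781). Removal of the GC trend left a difference of 0.38 (SE 0.11, limma adjusted p = 0.0738), below the threshold, and genes of the same GC bin had a median of 0.30. The authors' deposited table gives Cdh5 a log2 fold change of 0.61 with an adjusted p of 9.4e-06. Leaving out each library in turn gave Cdh5 log2 differences of 0.49 to 0.74, all of which passed (limma adjusted p of 0.0071 to 0.0289). Tk2, Cklf and Cmtm3, the nearest measured genes beyond Cdh5 on the side of higher coordinates, had log2 differences of 0.23, 0.34 and 0.43 and did not pass. On the side of lower coordinates, Gm8730 lay 1235.8 kb away with a log2 difference of 0.56 and did not pass. Beyond it, Cdh11 had a log2 difference of -0.43 and was called lower (SE 0.07, limma adjusted p = 0.0086). A330008L17Rik, farther still, had a log2 difference of 0.60 and did not pass.

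Pecam1, the adhesion molecule also known as CD31, lies on the reverse strand of chr11:106654217-106750628. Pecam1 had 509, 468 and 529.9 normalized counts in GoF replicates 1, 2 and 3, against 435 and 376 in CTRL replicates 2 and 3. All GoF libraries lay above both CTRL libraries, GoF replicate 2 and CTRL replicate 2 being closest. The log2 difference was 0.31 (SE 0.14, limma adjusted p = 0.131), and 0.21 after the GC correction (limma adjusted p = 0.364).

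**Figure D2:**
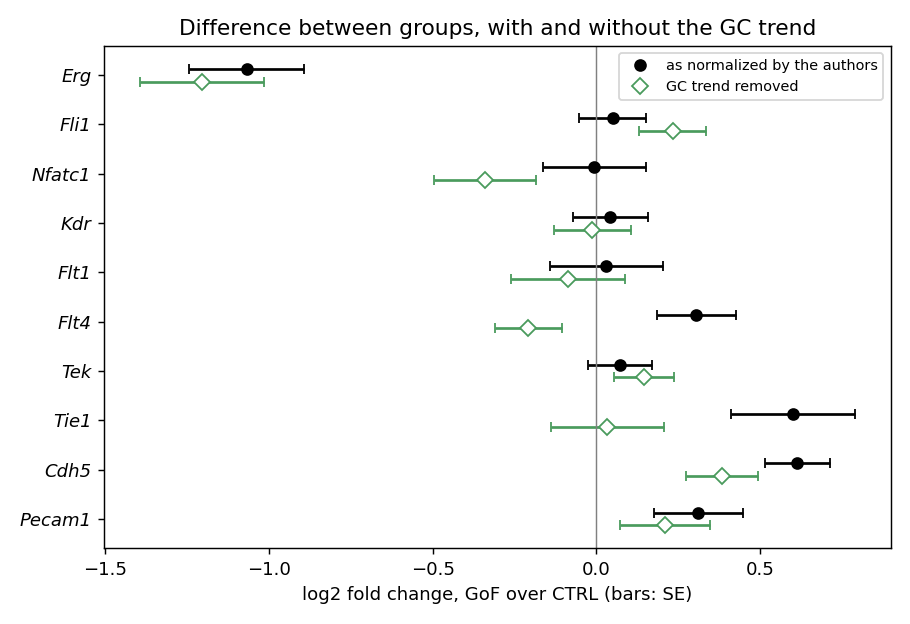
Log2 difference (GoF over CTRL, horizontal axis) of each of the 10 genes, with bars for the standard error from limma, as normalized by the authors (filled points) and with the GC trend removed (open diamonds). Erg lies at -1.07 and -1.20, Cdh5 moves to 0.38 with the trend removed against 0.61 before, and Tie1 moves to 0.03 against 0.60.

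The 10 genes differed in direction. Set against the mean of the other 9 on the log2 scale, Erg stood at -1.29 (GoF minus CTRL), while Cdh5 stood at 0.58, Tie1 at 0.56, Pecam1 at 0.24 and Flt4 at 0.23. The remaining 5 lay between -0.11 and -0.03. Summed over all 10 genes, the level was 12489, 11596 and 13447 normalized counts in GoF replicates 1, 2 and 3, against 14112 and 12579 in CTRL replicates 2 and 3, and the groups overlapped. Erg, the gene called lower, was then left out after its values were seen, while Cdh5, the gene called higher, was kept. Without Erg the sum was 10460.1, 9966 and 11103 in the GoF libraries, against 9257 and 9033 in the CTRL libraries. All GoF libraries then lay above both CTRL libraries, which follows in part from that choice. Erg made up 16.2%, 14.1% and 17.4% of the summed level in GoF replicates 1, 2 and 3, against 34.4% and 28.2% in CTRL replicates 2 and 3.

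Erg and Cdh5 moved in opposite directions in the same libraries. The ratio of Erg to Cdh5 was 0.840, 0.702 and 0.982 in GoF replicates 1, 2 and 3, against 2.87 and 2.49 in CTRL replicates 2 and 3. Erg thus exceeded Cdh5 in both CTRL libraries and in none of the 3 GoF libraries, before any correction for length. The GoF ratio was 0.312 times the CTRL ratio. It is a description given without a p-value, since the pair was picked because its genes were called in opposite directions.

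Removing the GC trend left 1 of the 10 genes called, Erg, and none called higher. Over all 16266 genes with a known GC content, 3.09% were then called higher and 3.29% lower, or 6.38% in either direction. Median GC content was 50.6% over the 10 genes and 48.2% over all genes tested, and the median log2 difference after the correction was 0.01 over the 10 genes and 0.00 over all genes. DESeq2 on the recovered reads called the same number as limma, 1 higher and 1 lower of 10, with 13.1% and 13.3% of all genes called (26.5% in either direction). Without GoF replicate 1, limma again called 1 higher and 1 lower, with 4.06% and 3.32% of all genes called (7.38% in either direction).

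**Figure D3:**
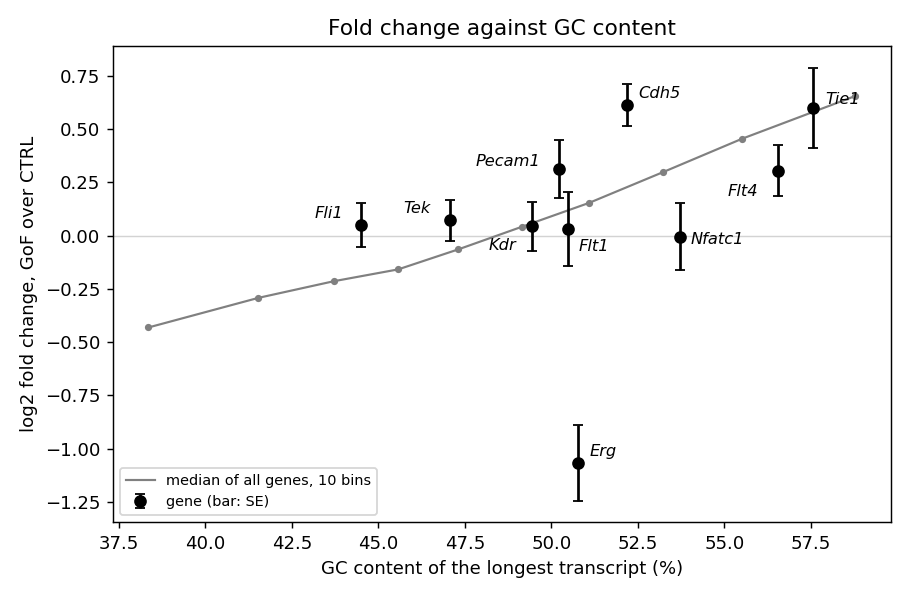
Log2 difference (GoF minus CTRL) of each of the 10 genes against the GC content of its longest transcript, with bars for the standard error and a line through the medians of all genes in 10 bins of GC content. Tie1 (GC content 57.6%, log2 difference 0.60) and Flt4 (56.5%, 0.30) lie on or below the line, and Erg (50.8%, -1.07) lies far below it.

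The GoF libraries also differed among themselves. For 5 of the 10 genes (Erg, Fli1, Flt1, Nfatc1 and Pecam1) GoF replicate 2 was lowest and GoF replicate 3 highest, an order found in 30.2% of all genes tested. Genes of the low oxygen response also differed between GoF replicates 2 and 3. All 10 on that list were higher in GoF replicate 3 than in GoF replicate 2, by a median of 1.54 on the log2 scale. The list was chosen with earlier results of these data known, so its split is only a description. Among the 10 endothelial and endocardial genes that median was 0.06, with 7 of 10 higher in GoF replicate 3. Over all 16794 genes tested it was -0.01, with 8125 higher in GoF replicate 3. Vegfa, a low oxygen target and the ligand of Kdr and Flt1, was named after its values were seen. It was measured at 1828, 1324 and 2359 normalized counts in GoF replicates 1, 2 and 3, against 1165.5 and 1314 in CTRL replicates 2 and 3 (log2 difference 0.53, limma adjusted p = 0.105). Its order over the GoF libraries was that of Flt1, and the part of low oxygen genes in the spread of Flt1 was not tested.

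**Figure D4:**
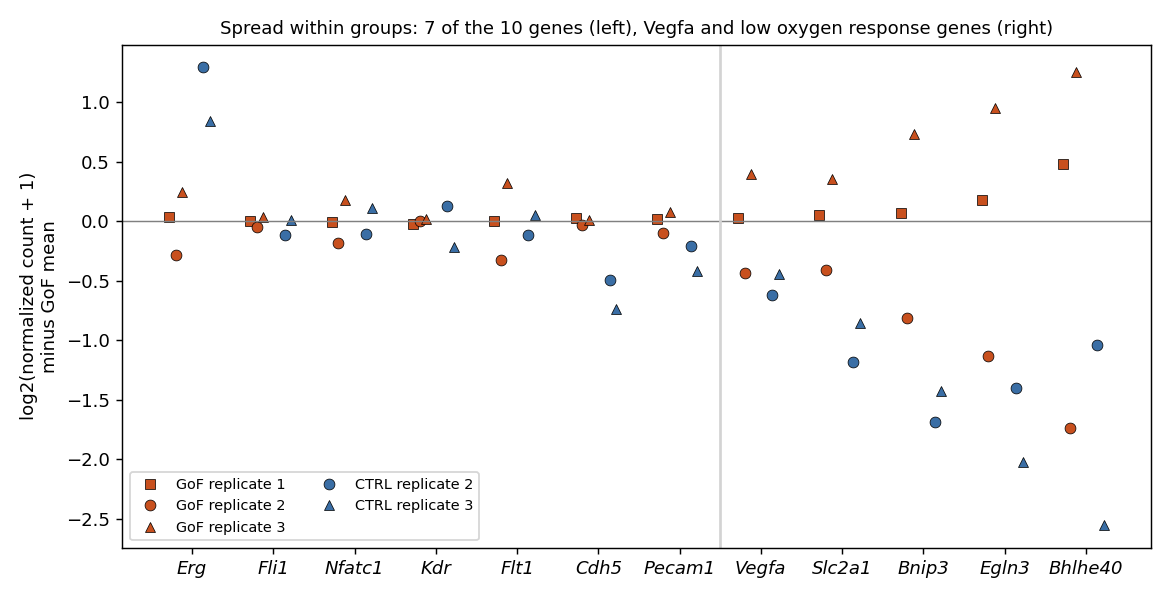
Log2(normalized count + 1) of each library minus the mean of the GoF libraries, for 7 of the 10 genes (left of the line) and for Vegfa and the low oxygen genes Slc2a1, Bnip3, Egln3 and Bhlhe40 (right), which were picked after their values were seen. GoF replicate 3 (triangles) lies above GoF replicate 2 (circles) in every gene on the right, and Egln3 has 1630.2 normalized counts in GoF replicate 3 and 383 in GoF replicate 2.

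By a fixed measure of likeness, the genes outside the list whose pattern was closest to the mean of the 10 were Tiam1, Angptl2, Smarca2, Zfp608 and Dixdc1. Their root mean squared difference from that mean over the 5 libraries was 0.0059 to 0.0194 on the log2 scale, and none was called. The mean of the 10 was nearly flat, lying at 0.04, -0.04 and 0.11 in GoF replicates 1, 2 and 3, against -0.04 and -0.07 in CTRL replicates 2 and 3 on the centred log2 scale. Likeness to it is therefore likeness to a flat line and not to Erg or Cdh5.

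Other genes of the same pathways were taken from 14 lists, in which 114 of 127 symbols had a row. Over all genes tested, 12.2% were called higher and 10.9% lower, and no list was tested as a set. Of 7 measured VEGF ligands and co-receptors, 1 rose and 1 fell, with a median log2 difference of 0.11. Vegfb, a ligand of Flt1, was measured at 571, 495 and 576 normalized counts in GoF replicates 1, 2 and 3, against 220.4 and 247 in CTRL replicates 2 and 3, and rose by 1.22 on the log2 scale (limma adjusted p = 0.0040). Vegfd, a ligand of Flt4, fell by 0.81 on the log2 scale (limma adjusted p = 0.0245), with 119, 105 and 104 normalized counts in the GoF libraries, against 200.5 and 183 in the CTRL libraries. Of 3 measured genes of the angiopoietin and TIE list, Angpt2, an angiopoietin that often opposes Tek signalling, fell by 0.70 on the log2 scale (limma adjusted p = 0.0204). With the GC trend removed none of these 3 called genes passed, at log2 differences of 0.46 for Vegfb (limma adjusted p = 0.0997), -0.68 for Vegfd (limma adjusted p = 0.0694) and -0.63 for Angpt2 (limma adjusted p = 0.0558). Vegfb passed whichever library was left out, Vegfd failed without any single GoF library (limma adjusted p of 0.0627 to 0.0973), and Angpt2 failed without GoF replicate 2 (limma adjusted p = 0.0615) and without CTRL replicate 3 (limma adjusted p = 0.0535).

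Endothelial transcription factors outside the 10 gave 2 of 13 higher and none lower, beside 12.2% and 10.9% of all genes tested. Their median log2 difference was 0.27. Sox18, a factor of vascular and lymphatic development, rose 1.99-fold (limma adjusted p = 0.0193), and the other was Ets2. Other endothelial junction, receptor and surface genes gave 3 higher and 2 lower of 23, beside the same shares, with a median of 0.26. Those higher were Plvap, a protein of endothelial diaphragms (log2 difference 1.23, limma adjusted p = 0.0125), Egfl7, a secreted endothelial factor (log2 difference 0.82, limma adjusted p = 0.0252), and Plxnd1, a semaphorin receptor (log2 difference 0.50, limma adjusted p = 0.0146), whose value turned to -0.20 with the GC trend removed. Sox18 and Egfl7 failed without any single GoF library, Plxnd1 without GoF replicate 1 or 2, and Plvap without GoF replicate 1 (limma adjusted p of 0.0526 to 0.1502). Emcn and Adgrf5, both endothelial surface proteins and both named after their values were seen, fell by 0.40 and 0.48 on the log2 scale (limma adjusted p = 0.0344 and 0.0298), and both failed without GoF replicate 1 (limma adjusted p = 0.157 and 0.0909). Once the GC trend was removed, Cd34, also named afterwards, was the only gene of both lists called, at 0.82 higher on the log2 scale (limma adjusted p = 0.0447). Before that removal Cd34 was not called (log2 difference 0.57, limma adjusted p = 0.0738). Of all genes with a known GC content, 3.09% were called higher with the trend removed.

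Of 5 measured endocardial genes besides Nfatc1, 3 fell and none rose, with a median log2 difference of -0.41 (-0.21 after the GC correction), against a background of 10.9% called lower. The others, named after their values were seen, were Tmem100 (log2 difference 1.03, limma adjusted p = 0.320), whose groups overlapped, and Gata5 (0.48, limma adjusted p = 0.0852), with all GoF libraries above both CTRL libraries. Nrg1, the ligand that endocardium sends to myocardium for trabeculation, was measured at 738, 749.8 and 692 normalized counts in GoF replicates 1, 2 and 3, against 971 and 1192 in CTRL replicates 2 and 3, and fell by 0.57 on the log2 scale (limma adjusted p = 0.0180). Npr3, a natriuretic peptide receptor expressed in endocardium, fell by 0.41 on the log2 scale (limma adjusted p = 0.0212), and Adgrg6, an adhesion receptor of the endocardium, fell by 0.84 on the log2 scale (limma adjusted p = 0.0219). None of the 5 was called with the GC trend removed, nor without GoF replicate 1 (limma adjusted p of 0.0614 to 0.122 for the 3). Npr3 and Adgrg6 also failed without GoF replicate 2 (limma adjusted p = 0.0648 and 0.0606), and Adgrg6 without CTRL replicate 3 (limma adjusted p = 0.0676). Of 8 calcineurin and NFAT genes, 2 rose and 3 fell, beside 12.2% higher and 10.9% lower of all genes tested. Nfatc4, a relative of Nfatc1, rose by 1.12 on the log2 scale (limma adjusted p = 0.00723), and Rcan1, a calcineurin inhibitor that NFATc1 induces, rose by 0.64 on the log2 scale (limma adjusted p = 0.0251). Ppp3ca, a catalytic subunit of calcineurin, fell by 0.38 on the log2 scale (limma adjusted p = 0.0339). Nfatc4 passed whichever library was left out, Rcan1 failed without CTRL replicate 2 or GoF replicate 1 or 3 (limma adjusted p of 0.0631 to 0.0751), Ppp3ca without CTRL replicate 2 or any GoF replicate (limma adjusted p of 0.0597 to 0.112), and no gene of this list passed with the GC trend removed.

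Arterial genes had a median log2 difference of 0.60, or 0.29 after the GC correction. Of 8, 2 were called higher and none lower, beside 12.2% and 10.9% of all genes tested. Which cells of the bulk tissue gave the values of this list and of the venous and lymphatic list was not tested. Efnb2 (arterial) and Nr2f2 (venous), named after their values were seen, had GoF means of 4284 and 6605 normalized counts. Their longest transcripts have 4793 and 4222 bases, while Cdh5 had a GoF mean of 2375 with 3995 bases. Unc5b, a netrin receptor of arterial endothelium, was measured at 835, 870.3 and 834 normalized counts in GoF replicates 1, 2 and 3, against 365 and 368 in CTRL replicates 2 and 3. It rose by 1.21 on the log2 scale (limma adjusted p = 0.00242) and was called again with the GC trend removed (limma adjusted p = 0.0276). Hey1, a Notch target, rose by 0.43 on the log2 scale (limma adjusted p = 0.0441), and its difference after the GC correction was 0.17 (limma adjusted p = 0.358). Venous and lymphatic genes gave 2 higher and 1 lower of 6, beside the same shares of all genes tested. Ephb4, the venous ephrin receptor, rose by 0.90 on the log2 scale (limma adjusted p = 0.00427), Aplnr, the apelin receptor, rose by 0.62 on the log2 scale (limma adjusted p = 0.0163), and Prox1, the lymphatic factor that heart muscle also expresses, fell by 0.38 on the log2 scale (limma adjusted p = 0.0288). After the GC correction none of the 6 venous and lymphatic genes was called, with log2 differences of 0.29 for Ephb4 (limma adjusted p = 0.115), 0.49 for Aplnr (limma adjusted p = 0.0704) and -0.23 for Prox1 (limma adjusted p = 0.145). Unc5b and Ephb4 passed whichever library was left out. Hey1 failed without CTRL replicate 2 or any GoF replicate, Prox1 without CTRL replicate 2 or GoF replicate 1 or 2, and Aplnr without GoF replicate 2 (limma adjusted p of 0.0529 to 0.160).

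**Figure D5:**
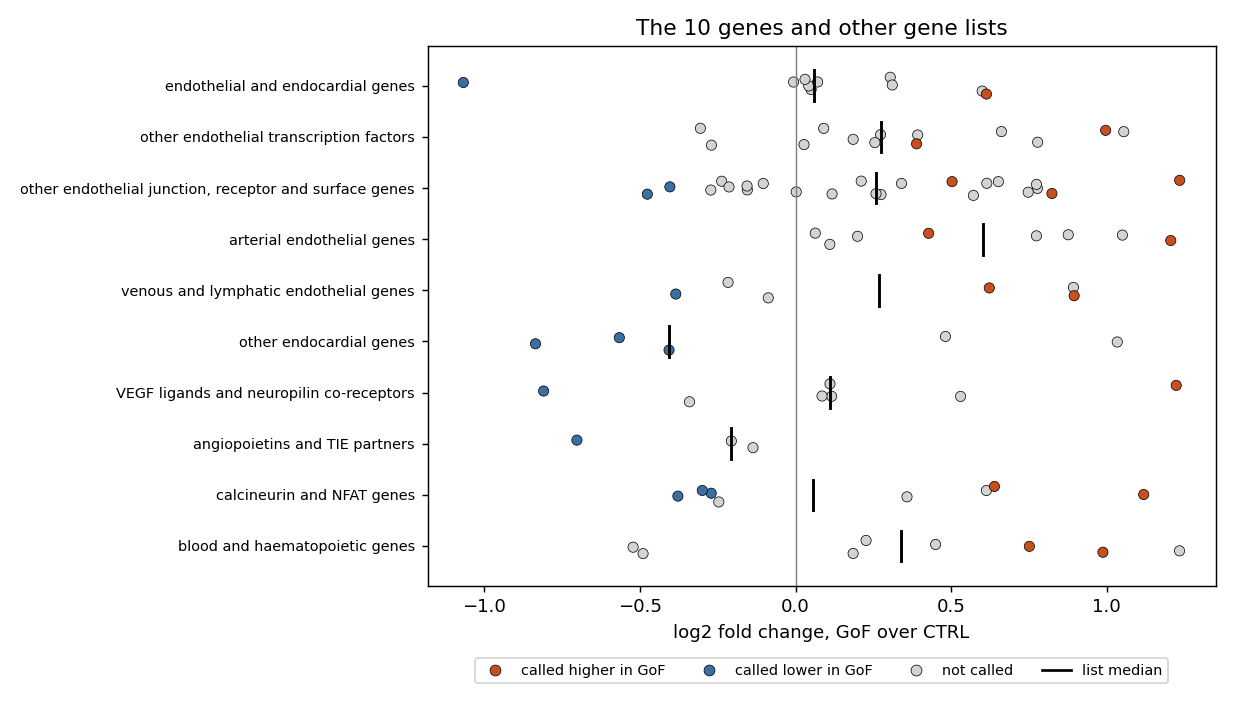
Log2 fold change (GoF over CTRL) of each measured gene (points) of the 10 endothelial and endocardial genes, in the top row, and of 9 other lists, coloured by the limma call, with a bar at the median of each list. The arterial list has a median of 0.60 (0.29 after the GC correction), the other endocardial genes have a median of -0.41 (-0.21 after it), and the 10 genes have a median of 0.06.

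Markers of other cell types in the dissected tissue were counted in the same way, beside the 23.2% of all genes called in either direction. Blood cells share Fli1, Tek and Pecam1 with endothelium, and 2 of 8 measured blood genes, Hba-x and Hbb-y, rose, though Hba-x failed without GoF replicate 1 or 3 (limma adjusted p = 0.197 and 0.0746) and Hbb-y without GoF replicate 3 (limma adjusted p = 0.0528). After the GC correction the log2 differences were 0.53 for Hba-x (limma adjusted p = 0.283) and 0.73 for Hbb-y (limma adjusted p = 0.0541). The summed level of the 8 was 13662 to 17483 normalized counts in the GoF libraries, against 10992 and 6593 in CTRL replicates 2 and 3, most of it from Hba-x, an embryonic globin (11272 to 14478 in GoF, against 8667 and 4824 in CTRL). The leukocyte markers Ptprc, Spi1 and Cx3cr1 and the platelet marker Itga2b were not analysed here. Cardiomyocyte genes gave 1 of 5 higher, with 61205 to 61844 summed normalized counts in GoF, against 52792 and 61601 in CTRL. After the GC correction none of these 5 was called higher and 2 were called lower, the myosin heavy chains Myh6 (log2 difference -0.46, limma adjusted p = 0.0131) and Myh7 (-0.87, limma adjusted p = 0.0169), both named after their values were seen. Epithelial genes gave 3 higher and 1 lower of 6 (2899.8 to 2986 in GoF, against 2194 and 2199 in CTRL), and neural crest genes gave 1 of 4 higher (1875 to 2065 in GoF, against 1070.5 and 1676 in CTRL). Second heart field genes gave 1 higher, Osr1, and 1 lower, Fgf10, of 9, and low oxygen genes gave 5 of 10 higher, with 58025 to 71775 summed normalized counts in GoF, against 30423 and 30610.3 in CTRL. Across all 14 lists, 31 called genes were named by the rule, of which 5 were also called with the GC trend removed and 9 passed whichever library was left out. The part of these other cell types in the values of the 10 genes was not tested.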

How the data were processed

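RNA from microdissected second heart field was measured in 5 libraries, 3 GoF and 2 CTRL, of 6 in the series. Per the labels' protocols, cDNA made from 2 ng of total RNA was amplified by single primer isothermal amplification before library preparation, a step that can favour transcripts by composition. Tools listed in the submitters' processing notes are STAR 2.5.2, HTSeq, bcl2fastq 2.17.1.14, DESeq2 and R, with mm10 as the build. The notes say nothing of the annotation, the strand or any filter (not given in the sources used here). Reads of overlapping or antisense genes therefore cannot be told apart, although no exon of the 10 genes shares a base with an annotated exon of another gene.

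The authors' deposited table gives each gene a signal per library (normalized count) and their mean, together with the result of the authors' own test as a log2 fold change, a score, and a p-value before and after adjustment. All values of the deposited signal were whole multiples of 1 step per library within 0.001, so the whole reads were recovered (34260116 to 44384354 per library). No counting intervals are given, because amplified reads that carry no molecular identifier cannot be counted as molecules. The lowest mean in the table was 6.1 normalized counts.

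Log2(normalized count + 1) of genes with a mean of at least 10 was fitted in R 4.3.3 with limma 3.58.1, without covariates, over the 5 libraries. P-values were Benjamini-Hochberg adjusted over all genes tested, with a threshold of 0.05. Every adjusted p called limma comes from this fit or from limma with the change its sentence names. Those changes are the GC trend removed, a library left out, or a block for the replicate number. Fold changes are on the log2(normalized count + 1) scale. DESeq2 1.42.0 and edgeR 4.0.16 were run on the recovered reads. Both, and limma as such, with the GC trend removed or with the replicate block, were also run on simulated counts. The simulated counts held no GC trend, and the other alternatives were not simulated. For 16302 genes the GC content of the longest transcript could be taken from GENCODE M21 (GRCm38). Its trend was fitted per library as a lowess curve (span 0.3) through the deviations from each gene's mean and subtracted, so a true change that tracks GC content is lost as well. The ratio of Erg to Fli1 was compared by exact permutation over libraries.

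The 10 genes, the 14 other lists and the tests were chosen with earlier results of these data known. Genes named besides the 10 are, of each other list, up to 3 called genes with the lowest adjusted p (or the 2 with the highest mean where none was called), and the 5 genes of mean at least 50 closest in pattern to the mean of the 10. Others are named with a remark or by position. Promoter sequences are from RefSeq and cover 6 of the 10 genes (8 windows of 250 bases before a start), with motifs searched on both strands, and those of Cdh5, Fli1, Pecam1 and Nfatc1 were not used here.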

Additional observations from a re-analysis of the deposited data

How the results depend on the processing

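Erg fell in 15 of the 17 alternatives tried and Cdh5 rose in 14, and both kept their direction in all 17. Cdh5 lost its call with the GC trend removed (log2 difference 0.38), alone or combined with leaving out GoF replicate 1 (0.38) or with the replicate block (0.37). Erg lost its call under both combinations (-1.22 in each). These combined fits use fewer libraries or degrees of freedom, and the cause was not tested. Genes called higher and lower numbered 2054 and 1835 with limma, 2212 and 2241 with DESeq2, and 2080 and 1679 with edgeR. They numbered 503 and 535 with the GC trend removed, 58 and 72 when GoF replicate 1 was also left out, and 682 to 2724 and 559 to 2547 with 1 library left out. Where that left 1 CTRL library, it was assumed to vary like the GoF libraries. Of the 10 genes, 1 higher and 1 lower became 2 higher at a minimum mean of 50 or with TMM rescaling (Tie1 added, 0.60 and 0.63), and 1 to 3 higher with 1 library left out. With the GC trend removed 0 were higher, and with GoF replicate 1 also left out, 0 were higher and 0 lower. Of the other lists' genes, 25 were higher and 13 lower, against 5 and 4 with the GC trend removed, 1 and 1 without GoF replicate 1 as well, and 10 to 33 and 2 to 14 with 1 library left out.

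The labels do not say whether the shared numbers 2 and 3 pair the libraries. The correlation of deviations between libraries of the same number was 0.0049, under 0.1, but so few libraries cannot decide the question. GoF replicate 1 is the only library with its number. The log2 differences of Erg and Cdh5 with the replicate block therefore equal those without GoF replicate 1, and the block is not a separate check of them. With the replicate block, 765 genes were higher and 606 lower, and 13 and 2 of the other lists' genes, and Erg (-1.09, limma adjusted p = 0.0142) and Cdh5 (0.60, limma adjusted p = 0.0277) passed. With the block and the GC trend removed these were 73 and 90 genes, 3 and 1 of the other lists' genes, and 0 higher and 0 lower of the 10.

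Some values changed sign, among them those of the called genes Plxnd1, Ppp3cb (0.094 with the GC trend removed) and Ppp3r1 (0.0030). With the GC trend removed, with that and GoF replicate 1 left out, and with that and the block, Flt4 was -0.21, -0.18 and -0.18, Flt1 -0.087, -0.086 and -0.087, Plxnd1 -0.20, -0.17 and -0.17, Tiam1 -0.14, -0.13 and -0.14, Angptl2 -0.28 in each, and Smarca2 -0.055, -0.057 and -0.059. Kdr was -0.012 with the trend removed and -0.00073 with the block as well. Nfatc1 was 0.026 with edgeR and 0.023 with TMM rescaling. With 1 library left out, values ran from -0.13 to 0.21 for Kdr, -0.13 to 0.19 for Flt1, -0.014 to 0.11 for Fli1, -0.12 to 0.10 for Nfatc1, 0.16 to 0.45 for Flt4 and 0.47 to 0.73 for Tie1. With 2 CTRL libraries, the Erg to Fli1 ratio could not reach an exact p under 0.1, and no outlier test was run on groups of 2 and 3.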
